A study of Rattus norvegicus with 28 samples.

Results

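Most of the enzymes described here attach a large, charged group to bilirubin, hormones, drugs and reactive metabolites: the UDP-glucuronosyltransferases (UGT), the cytosolic sulfotransferases (SULT) and the glutathione transferases (GST). They were taken as every gene name on the array that begins with Ugt1, Ugt2, Ugt3 or Ugt8, with Sult1 to Sult6, with Gst and a letter, or with Mgst1 to Mgst3. That gave 25 of the 37806 gene names: 7 UGT, 6 SULT and 12 GST genes, each read from its brightest probe. The rule left out Ugt1a6 and Gsta2, well-known targets of the dioxin receptor, which had log2 ratios of 0.80 ± 0.18 and 0.90 ± 0.23 with TCDD 1 nM and both passed the test there. All 25 members passed the filter on dim probes, and 22 were well above background in both channels on all 28 arrays; the exceptions were Sult1d1, Sult4a1 and Ugt8. Another 21 genes of these families stand on the array under other names and are no members.

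The cells were primary hepatocytes from adult females of the Sprague-Dawley strain, 2 animals called A and B, plated on dishes coated with Matrigel. They were held for 48 h in medium with ITS+ and 0.1 uM dexamethasone, which all groups including the controls received, and then exposed for 24 h. The 7 groups were untreated cells, TCDD at 0.01 or 1 nM, TCDF at 0.1 or 10 nM, and PeCDF at 0.02 or 2 nM, the compounds in 0.1% DMSO; TCDD is a chlorinated dibenzodioxin, TCDF the dibenzofuran with the same chlorine positions and PeCDF a dibenzofuran with 1 chlorine more. Every group had 4 arrays, 2 for each animal with the dyes exchanged, and each array set the test RNA of 3 pooled dishes against DMSO RNA of the same animal; the labels do not say whether the groups of an animal share a single DMSO pool. Values are log2 ratios of test RNA to DMSO RNA with the standard error of the fit (n = 2 animals, the dye-swap pair of an animal averaged), and a gene is called where its adjusted p over all genes in limma's test is under 0.05. TCDD and the furans were read in separate sessions, so that compound and session cannot be told apart, and the doses of the compounds differ.

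Glucuronosyltransferases sit in the membrane of the endoplasmic reticulum and use UDP-glucuronic acid; sulfotransferases are soluble and use the sulfate donor PAPS; glutathione transferases join glutathione to electrophiles, most in the cytosol and the Mgst enzymes in membranes. In liver the products leave through transporters into bile or blood. TCDD and its relatives bind the aryl hydrocarbon receptor (AHR), which pairs with ARNT and binds DNA at sites with the core GCGTG, while NRF2 acts at antioxidant response elements with the core TGACNNNGC. All first exons of the Ugt1 locus are joined to the same later exons, and the Ugt2b and Gstm genes are close copies of each other, so a probe can read several of these transcripts; where the probes lie was not given.

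Gene names here are those of the array's design. By accession the current RefSeq symbols are Gsta1 for Gsta5, Gstm7 for Gstm3, Gstm3 for Gstm4, Sult1c3 for Sult1a2 and Ugt2b37 for Ugt2b5, and 18 more members keep their name; Gstp2 and Ugt2b12 matched only as older names of Gstp1 and Ugt2b35. The promoter windows of 4 called members are shown, because they cover the one increase, the largest decreases of a glucuronosyl- and a sulfotransferase, and Gstm3, which was called with every upper dose. They run from 250 bases before to 50 bases after the start in RefSeq (GRCr8), 5′ to 3′ along the gene, with matches to GCGTG or TGACNNNGC on either strand in capitals.
Ugt1a8 (chr9:96174649-96174948, + strand): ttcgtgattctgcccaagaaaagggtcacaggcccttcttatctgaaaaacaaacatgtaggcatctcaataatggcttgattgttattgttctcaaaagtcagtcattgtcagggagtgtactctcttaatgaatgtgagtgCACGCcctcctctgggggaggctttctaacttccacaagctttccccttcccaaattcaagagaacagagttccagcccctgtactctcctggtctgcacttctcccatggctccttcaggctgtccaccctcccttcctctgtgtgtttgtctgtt
Ugt1a1 (chr9:96248893-96249192, + strand): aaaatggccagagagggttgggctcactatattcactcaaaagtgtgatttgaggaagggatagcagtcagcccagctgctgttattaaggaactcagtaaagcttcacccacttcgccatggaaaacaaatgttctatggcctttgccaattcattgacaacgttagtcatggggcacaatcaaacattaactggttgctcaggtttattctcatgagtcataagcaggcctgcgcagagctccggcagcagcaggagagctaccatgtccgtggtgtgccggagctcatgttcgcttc
Sult1b1 (chr14:20771667-20771966, + strand): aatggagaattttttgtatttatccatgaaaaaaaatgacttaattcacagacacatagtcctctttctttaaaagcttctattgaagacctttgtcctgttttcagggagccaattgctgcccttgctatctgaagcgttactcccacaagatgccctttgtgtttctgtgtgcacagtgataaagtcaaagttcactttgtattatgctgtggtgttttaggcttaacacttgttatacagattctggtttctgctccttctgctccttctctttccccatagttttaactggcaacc
Gstm3 (chr2:198260270-198260569, - strand): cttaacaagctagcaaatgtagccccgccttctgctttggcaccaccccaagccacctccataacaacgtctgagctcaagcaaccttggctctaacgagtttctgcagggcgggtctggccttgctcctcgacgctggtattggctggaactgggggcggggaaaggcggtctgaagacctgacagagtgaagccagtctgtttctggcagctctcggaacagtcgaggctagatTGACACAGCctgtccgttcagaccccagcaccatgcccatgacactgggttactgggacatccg
The window of Ugt1a8 holds 1 GCGTG, read on the opposite strand, and that of Gstm3 holds 1 TGACNNNGC; the windows of Ugt1a1 and Sult1b1 hold neither. Over the 19 members with a window, 4 (21.1%) hold GCGTG, against 29.7% of all 33469 windows, and 4 (21.1%) hold TGACNNNGC, against 12.1%. Of the 9 members called with TCDD 1 nM that have a window, 1 holds GCGTG and 1 TGACNNNGC. These are matches of letters in a short window and no measure of binding.

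With TCDD 1 nM, 10 of the 25 members fell and 1 rose. Among the 7 UGT genes 5 fell (Ugt1a1, Ugt2b, Ugt2b12, Ugt2b5, Ugt2a1) and Ugt1a8 rose. Ugt8, a member by its name but a galactosyltransferase, was not called. Of the 6 sulfotransferases Sult1b1, Sult1a1 and Sult1c2 fell, and of the 12 glutathione transferases Mgst1 and Gstm3. Over all genes tested, 10.6% were called in this comparison (4.63% higher, 5.92% lower), and the members' 11 of 25 make 44%. The members' median log2 ratio was -0.20, against -0.00128 over all genes; by family it was -0.74 for UGT, -0.39 for SULT and -0.10 for GST. In untreated cells, set against DMSO RNA of the same animal, no member was called (0.043% of all genes were), and the members' median was 0.03. At p under 0.05 before adjustment, 3725 genes passed in untreated cells and 8022 with TCDD 1 nM. With each array centred on its median in place of loess, 3 members were called with TCDD 1 nM (Ugt1a1, Ugt2a1 and Sult1b1), and over all genes the calls fell from 3677 to 214 (106 higher, 108 lower); the other 8 kept their direction and missed the threshold.

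**Figure D1:**
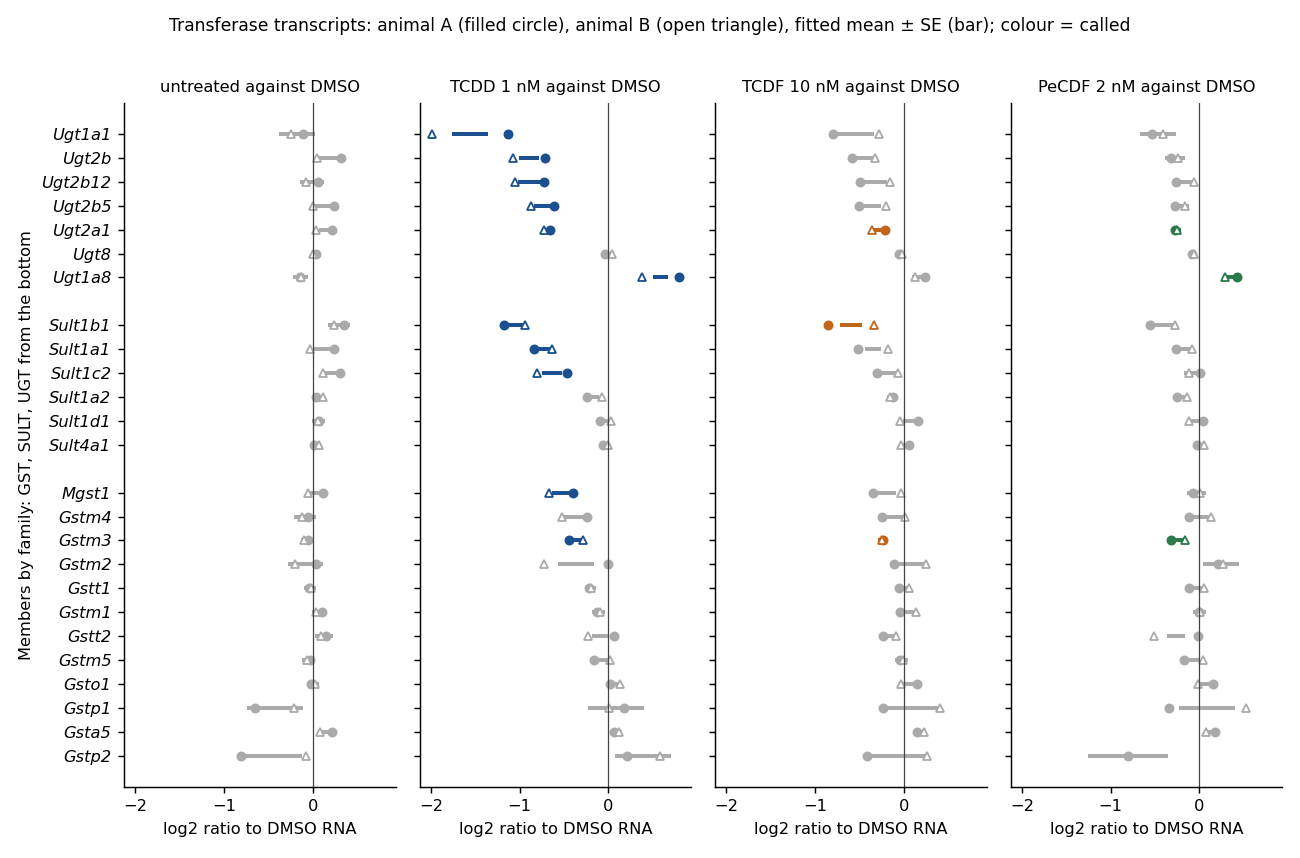
Log2 ratio to DMSO RNA (horizontal axis) of the 25 members (rows, by family) in untreated cells and at the 3 upper doses, with animal A as filled circles, animal B as open triangles, bars for the fitted mean ± SE and colour where a member was called. With TCDD 1 nM both animals lie below 0 for 10 coloured members and above 0 for Ugt1a8, while the untreated panel has no coloured row.

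Ugt1a1, the enzyme that conjugates bilirubin, had the largest decrease. Its 4 arrays with TCDD 1 nM read -1.18 and -1.08 in animal A and -2.10 and -1.88 in animal B, and the fitted ratio was -1.56 ± 0.20 (adjusted p = 0.000952), or 2.95-fold lower. The highest of the 4 untreated arrays read -0.08 and the lowest -0.29, above all 4 arrays with TCDD, and animal B fell further than animal A. At TCDD 0.01 nM both animals were near the DMSO level (-0.05 and -0.04).

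Ugt2b, Ugt2b5 and Ugt2b12, of the subfamily known for conjugating steroids and bile acids, fell together. For Ugt2b the arrays read -0.82 and -0.62 in animal A and -1.14 and -1.01 in animal B (-0.90 ± 0.11, adjusted p = 0.000714). Ugt2b12 gave -0.71 and -0.74 in animal A and -1.05 and -1.04 in animal B (-0.89 ± 0.13, adjusted p = 0.00196). The brightest probe of Ugt2b5 gave -0.72 and -0.50 in animal A and -0.97 and -0.76 in animal B (-0.74 ± 0.10, adjusted p = 0.0011). In each of these genes animal B was the lower. A second probe of Ugt2b5 gave -0.17 ± 0.10 and was not called, so the call for that gene rests on its brighter probe.

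Ugt2a1, best known from the olfactory epithelium, fell to a like degree in both animals. The arrays with TCDD 1 nM read -0.70 and -0.62 in animal A and -0.77 and -0.67 in animal B, a ratio of -0.69 ± 0.06 with the smallest adjusted p among the members (6.34e-05). The size depended on the background correction: it was -0.24 without one and -1.06 in Agilent's own log ratios, called in both. Ugt1a8, another product of the Ugt1 locus, was the one member that rose: 0.80 on both arrays of animal A and 0.34 and 0.42 in animal B (0.59 ± 0.09, adjusted p = 0.00192). Animal A was higher than B, and all 4 arrays were above 0; without animal A the ratio was 0.38. A second, dimmer probe under the same name gave 0.04 ± 0.22 and was not called. It read higher with the furans, 0.27 ± 0.22 with TCDF 10 nM and 0.34 ± 0.22 with PeCDF 2 nM, also not called. Ugt8, which makes the galactosylceramide of myelin, stayed between -0.06 and 0.05 on the 4 arrays (0.00 ± 0.04).

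Among the sulfotransferases Sult1b1, an enzyme of thyroid hormone sulfation, fell most. Its arrays read -1.002 and -1.34 in animal A and -0.72 and -1.15 in animal B (-1.05 ± 0.13, adjusted p = 0.000595), 2.08-fold lower. The DMSO channel was saturated on the array of each animal with the smaller decrease, and an unsaturated second probe gave -1.23 ± 0.13. Sult1a1, the main sulfotransferase of phenols, gave -0.76 and -0.91 in animal A and -0.61 and -0.66 in animal B (-0.74 ± 0.09, adjusted p = 0.000794). For Sult1c2 the arrays read -0.39 and -0.54 in animal A and -0.79 and -0.82 in animal B (-0.64 ± 0.11, adjusted p = 0.00572), and its 3 other probes gave between -0.42 and -0.35, all called. Sult1b1 and Sult1a1 fell further in animal A and Sult1c2 further in animal B.

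The other sulfotransferases were not called in any comparison. Sult1a2 had -0.15 ± 0.05 with TCDD 1 nM (adjusted p = 0.108), with all 4 arrays between -0.30 and -0.01, and -0.19 ± 0.05 with PeCDF 2 nM (adjusted p = 0.0763). Sult1d1 and Sult4a1, the latter a brain enzyme, were not well above background on all arrays and had -0.03 ± 0.07 and -0.03 ± 0.04; the largest value of Sult1d1 at an upper dose was 0.06 ± 0.07 with TCDF 10 nM.

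Of the glutathione transferases 2 of 12 were called. Mgst1, the membrane-bound enzyme of the endoplasmic reticulum and mitochondria, read -0.44 and -0.35 in animal A and -0.70 and -0.63 in animal B (-0.53 ± 0.10, adjusted p = 0.00859). Gstm3, of the mu class, read -0.53 and -0.36 in animal A and -0.37 and -0.19 in animal B (-0.36 ± 0.05, adjusted p = 0.0016). Without background correction Gstm3 had -0.18, still called. Both fell on all 4 arrays, as did each of the 10 members called lower. Gstm4, also of the mu class, had -0.25 and -0.23 in animal A and -0.55 and -0.50 in animal B and was not called (-0.38 ± 0.13, adjusted p = 0.0891). The other 9 glutathione transferases that were not called had fitted ratios between -0.36 (Gstm2) and 0.39 (Gstp2). With the animal as a block in the fit, 2 of these were called as well: Gstp2 higher (adjusted p = 0.0369) and Gstt1, of the theta class, lower (-0.20 ± 0.05, adjusted p = 0.0305). Gsta5 and Gstm1 had the test channel saturated on 14 and 15 of 28 arrays. Their DMSO channel was saturated on 14 arrays each, and saturation in both channels limits their ratios. The 2 probes of Gstt2 disagreed in size, -0.09 ± 0.10 on the brighter and -0.59 ± 0.20 on the other, neither called.

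With TCDD 1 nM animal A alone gave ratios from -1.17 (Sult1b1) to -0.39 (Mgst1) for the members called lower. Animal B alone gave -1.99 (Ugt1a1) to -0.28 (Gstm3). Without animal B not all of the called members passed the threshold. Of the 10 members that fell, 7 were lower in animal B and 3 in animal A.

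Of the members that fell, 5 are near neighbours in the genome. On chromosome 14 of GRCr8 Sult1d1, Sult1b1, Ugt2a1, Ugt2b, Ugt2b5 and Ugt2b12 stand within a run of 10 protein-coding genes, and 5 of the 6 fell with TCDD 1 nM; Ugt2b12 was placed by its older name alone. In the same run 2 genes listed under other names were measured, and these were looked up after the members' values were seen. Ugt2a3 had -1.43 ± 0.19 (adjusted p = 0.000954) and Ugt2b15 -1.14 ± 0.18 (adjusted p = 0.00276), so that 7 of 8 measured genes of the run fell and Sult1d1 alone was not called. The run ends at its last member by definition. Ugt2b7, the next gene after it and also listed under another name, had 0.01 ± 0.04 and was not called (adjusted p = 0.938). Probes for these close copies may read each other's transcripts, and what that adds was not tested. In the run of Gstm genes on chromosome 2, 1 of 5 members fell. Ugt1a8 and Ugt1a1, the first and the last genes of a run of 8 on chromosome 9, moved in opposite directions. Of the 21 family genes under other names 20 had a value with TCDD 1 nM (Sult2b1 had none). Of these 7 fell and 0 rose, with a median of -0.10; 3 of 7 UGT, 2 of 4 SULT and 2 of 9 GST genes were among the 7.

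**Figure D2:**
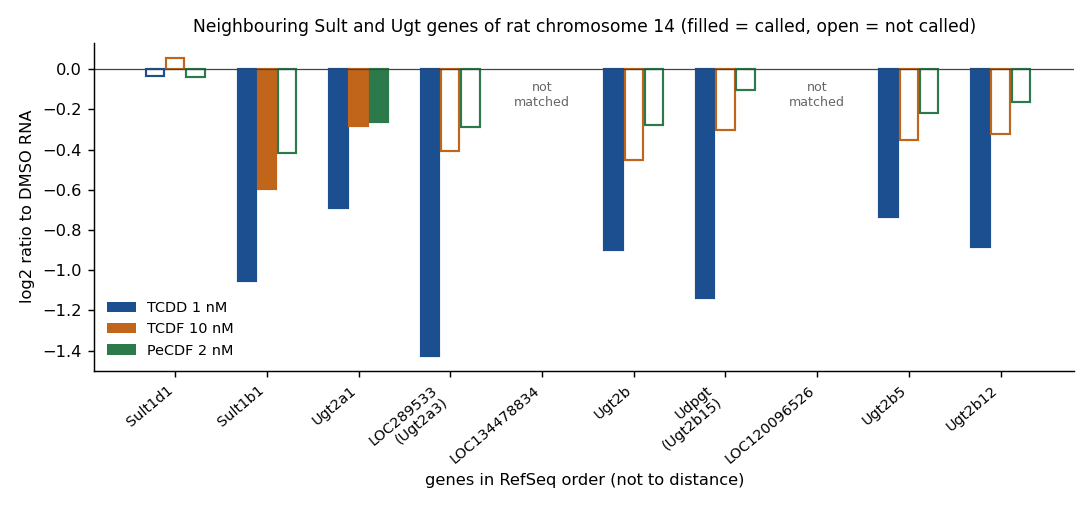
Log2 ratio to DMSO RNA (vertical axis) of the genes in the run on chromosome 14, in RefSeq order, for the 3 upper doses, with filled bars where a gene was called and 2 genes that no probe was matched to. All measured genes but Sult1d1 have filled bars below 0 with TCDD 1 nM, from -0.69 for Ugt2a1 to -1.43 for Ugt2a3.

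At the upper doses of the furans fewer members were called. With TCDF 10 nM 3 of 25 fell and 0 rose (2.36% of all genes were called, 1.11% higher and 1.26% lower), and the members' median was -0.11 against 0.0023 over all genes. Sult1b1 read -0.72 and -0.98 in animal A and -0.18 and -0.50 in animal B (-0.59 ± 0.13, adjusted p = 0.0426). Ugt2a1 read -0.15 and -0.27 in animal A and -0.34 and -0.38 in animal B (-0.28 ± 0.06, adjusted p = 0.0343). For Gstm3 the arrays read -0.19 and -0.28 in animal A and -0.33 and -0.16 in animal B (-0.24 ± 0.05, adjusted p = 0.0457, and 0.0547 with the animal as a block). Every array of these 3 members was below 0. Over the 13 alternatives run, leaving out an animal among them, Sult1b1 stayed called in 7, Gstm3 in 8 and Ugt2a1 in 9. Ugt2a1 had -0.14 without background correction and -0.48 in Agilent's log ratios. Without animal A the ratio of Sult1b1 was -0.34. Without animal B only Sult1b1 was called, and no member was without animal A or with the furan session fitted alone. With each array centred on its median in place of loess, the ratios of Sult1b1 and Gstm3 turned to 0.04 and 0.07, that of Ugt2a1 was -0.13 and none was called; 9 genes were called in all, 8 higher and 1 lower. In Agilent's log ratios 111 genes were higher and 310 lower with TCDF 10 nM, against 385 and 438 in the fit used here. Ugt1a1, Ugt2b, Ugt2b5, Ugt2b12 and Sult1a1 were not called, with ratios from -0.53 to -0.32.

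With PeCDF 2 nM 2 members fell and 1 rose (4.39% of all genes were called, 1.72% higher and 2.67% lower), and the median was -0.07 against -0.00066. Ugt2a1 read -0.35 and -0.20 in animal A and -0.26 and -0.23 in animal B (-0.26 ± 0.06, adjusted p = 0.0337). Gstm3 read -0.36 and -0.28 in animal A and -0.27 and -0.05 in animal B (-0.24 ± 0.05, adjusted p = 0.0306). Ugt1a8 rose, with 0.41 and 0.46 in animal A and 0.29 and 0.30 in animal B (0.36 ± 0.09, adjusted p = 0.0474). Each of the 3 kept 1 sign on all 4 arrays. With the animal as a block Ugt1a8 missed the threshold (adjusted p = 0.0514) and Sult1b1 passed it (-0.42 ± 0.09, adjusted p = 0.0362). None was called without animal A, without animal B, without background correction or from Agilent's own log ratios. Without background correction Ugt2a1 had -0.12 and Gstm3 -0.13, and without animal A Gstm3 had -0.16. With median centring 4 genes were called in all, 3 higher and 1 lower.

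Ugt2a1 and Gstm3 were thus called with all 3 compounds at the upper dose, Sult1b1 and Ugt1a8 with 2 and 7 members with TCDD 1 nM alone; 14 were called with none. Ugt2a1 and Gstm3 were also the dimmest called members, with mean log2 signals of 7.6 and 8.5 in the DMSO RNA of animal A. Next was Ugt1a1 at 10.6, whose larger decreases with the furans were not called. The 10 members that fell with TCDD 1 nM were also below 0 in each furan's fit, which used the brightest probes. The ratios ran from -0.59 to -0.18 with TCDF 10 nM and from -0.47 to -0.03 with PeCDF 2 nM. They are given as a description because the TCDD call chose the genes. The -0.18 was that of Sult1c2, whose other probes gave -0.05, 0.02 and 0.02 with TCDF 10 nM. In those 10, animal B was the lower in 7 with TCDD 1 nM, in 2 with TCDF 10 nM and in 1 with PeCDF 2 nM.

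**Figure D3:**
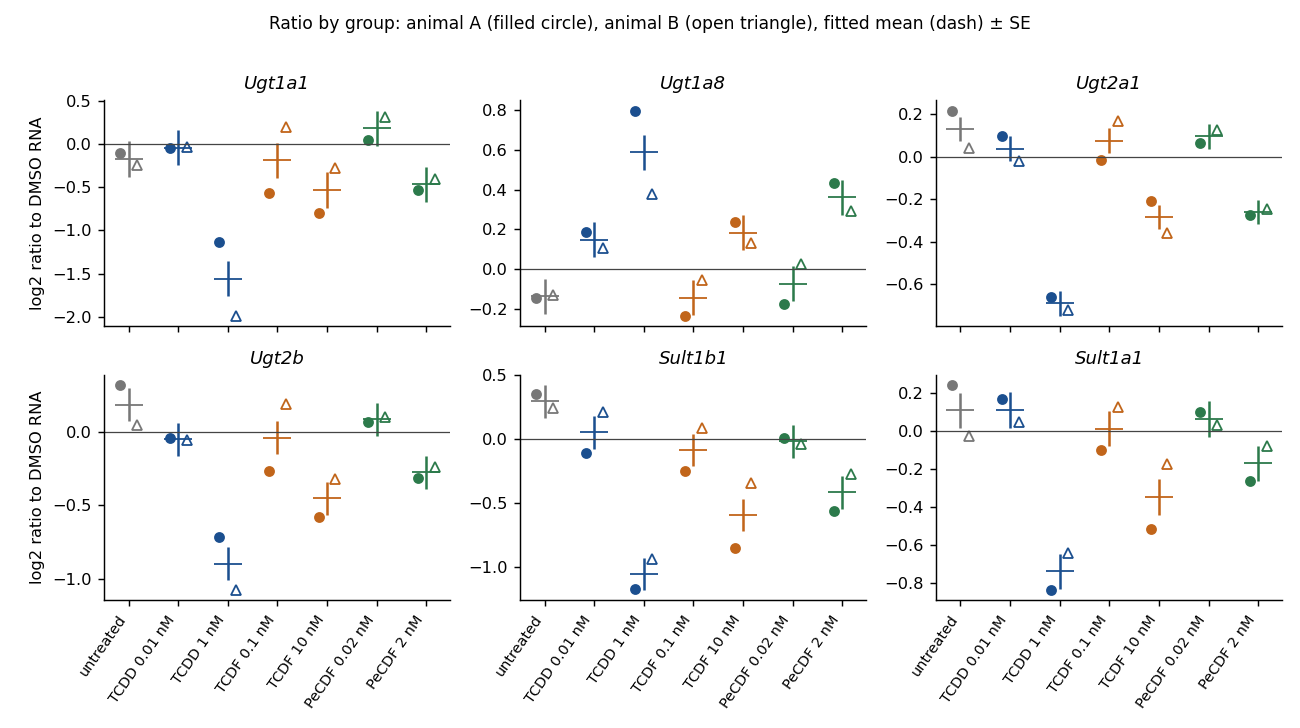
Log2 ratio to DMSO RNA (vertical axes, scaled separately) of 6 members in the 7 groups (horizontal axes), with animal A as filled circles, animal B as open triangles and a dash with a line for the fitted mean ± SE. Ugt1a1, Ugt2a1, Ugt2b, Sult1b1 and Sult1a1 reach their lowest values with TCDD 1 nM and lie nearer 0 with TCDF 10 nM and PeCDF 2 nM. The brightest probe of Ugt1a8, the one drawn, lies highest with TCDD 1 nM.

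The 3 pairs of compounds were compared at the upper doses, with p-values adjusted over all genes in each. Ugt2a1 was lower with TCDD 1 nM than with PeCDF 2 nM by 0.43 ± 0.08 on the log2 scale (-0.43, adjusted p = 0.0468), the only member called of 25 in that pair (0.847% of all genes were). The difference was -0.12 without background correction and -0.70 in Agilent's log ratios, called in neither. By animal the difference was -0.38 in animal A and -0.47 in animal B. The call was also lost without animal B of the TCDD group and without either animal of the PeCDF group. Without animal A of the TCDD group further members were called. No member was called between TCDD 1 nM and TCDF 10 nM (0.0631% of all genes were) or between PeCDF 2 nM and TCDF 10 nM, where no gene was; before adjustment 4189 and 990 genes had p under 0.05. For Ugt1a1 the difference of TCDD 1 nM from TCDF 10 nM was -1.03 (95% interval -1.67 to -0.38, adjusted p = 0.217), and from PeCDF 2 nM it was -1.09 (-1.74 to -0.45, adjusted p = 0.116). By animal, the difference from TCDF was -0.34 in animal A and -1.71 in animal B, and that from PeCDF -0.60 and -1.58. The intervals in this paragraph are not adjusted for the number of genes. For Sult1b1 the same differences were -0.46 (-0.86 to -0.06) and -0.64 (-1.04 to -0.24). Between PeCDF 2 nM and TCDF 10 nM the differences were 0.07 (-0.58 to 0.71) for Ugt1a1 and 0.18 (-0.22 to 0.58) for Sult1b1, intervals that leave room for differences of either sign. Because the doses were 1, 10 and 2 nM, these values compare the exposures used and not the compounds at 1 dose.

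No member was called at TCDD 0.01 nM, TCDF 0.1 nM or PeCDF 0.02 nM, where 0.451%, 0.00287% and 0% of all genes were. The members' medians there were 0.02, -0.03 and 0.04. Between the doses of TCDD 8 of 25 members were lower at 1 than at 0.01 nM and 0 higher (3.74% of all genes were called, 1.39% higher and 2.34% lower): Ugt1a1 (-1.52 ± 0.29, adjusted p = 0.0179), Sult1b1 (-1.11 ± 0.18), Ugt2b (-0.85 ± 0.16), Sult1a1 (-0.84 ± 0.13), Sult1c2 (-0.75 ± 0.16), Ugt2a1 (-0.73 ± 0.08), Ugt2b5 (-0.67 ± 0.14) and Gstm3 (-0.36 ± 0.07). No member was called here with median centring (6 genes were in all). Without background correction Ugt2a1 had -0.24 and Gstm3 -0.18, and in Agilent's log ratios Ugt2a1 had -1.11. Fewer members passed with any 1 animal left out, and without animal B of the TCDD 1 nM group not all of them were lower. Between the doses of TCDF and of PeCDF no member was called (0.089% and 0.0833% of all genes were; 1581 and 1790 had p under 0.05 before adjustment). Ugt1a1 was lower at the upper dose by a fitted -0.35 for TCDF and -0.65 for PeCDF, and Ugt1a8 higher by 0.33 and 0.44, none of them called.

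Gstp1 and Gstp2, of the pi class, which normal adult rat hepatocytes hold little of and which is known as a marker of early liver lesions, differed between the animals; Gstp1 was singled out after its values were seen. In the DMSO RNA the Gstp1 log2 signal was 11.9 on average in animal A (11.5 to 12.1 on 14 arrays) and 13.4 in animal B (13.3 to 13.6), a 2.96-fold difference. For Gstp2 it was 13.7 in animal A (13.24 to 14.04) and 14.9 in animal B (14.2 to 15.3), 2.34-fold. The arrays of the animals did not overlap for either name. Gstp2 matched only as an older name of Gstp1, so both may read the same gene and are not separate evidence. Only 0.0373% and 0.103% of all genes had a larger difference of the mean signals, and the arrays did not overlap in 4 of the 25 members, the others being Gstm5 and Gstm3, against 4.38% of all genes. With 1 animal on each side this difference has no replicate, and it was not tested.

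The ratios of these genes ran low in animal A. For Gstp1 untreated cells of animal A had -0.65 and the lower doses -0.77 (TCDD), -0.95 (TCDF) and -0.94 (PeCDF), while animal B had -0.20, -0.19, 0.08 and 0.15. At the upper doses animal A had 0.18, -0.23 and -0.34, and animal B 0.01, 0.41 and 0.53, in the same order of compounds. So in both animals each upper dose gave a higher value than its lower dose, by 0.95, 0.72 and 0.60 in animal A and by 0.19, 0.33 and 0.38 in animal B, though no step was called (adjusted p = 0.269 or above with the animal as a block).

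Gstp2 showed the same order of doses. With TCDD the step from 0.01 to 1 nM was 1.18 in animal A and 0.75 in animal B; it was called only with the animal as a block (0.97 ± 0.14, adjusted p = 0.00828). The TCDF step was 0.72 and 0.59, and the PeCDF step 0.60 in animal A. A spot marked as an outlier left animal B with 1 array (0.38) and no dye-balanced Gstp2 value at PeCDF 2 nM, so the fitted -0.80 ± 0.45 there is animal A's alone. A second, dimmer probe of Gstp1 gave 0.14 ± 0.04 with TCDD 1 nM and passed the threshold in a fit of all probes (adjusted p = 0.0457), while the brightest probe gave 0.09 ± 0.31 and did not. The test channel of Gstp2 was saturated on 1 array, in animal B with TCDD 1 nM.

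**Figure D4:**
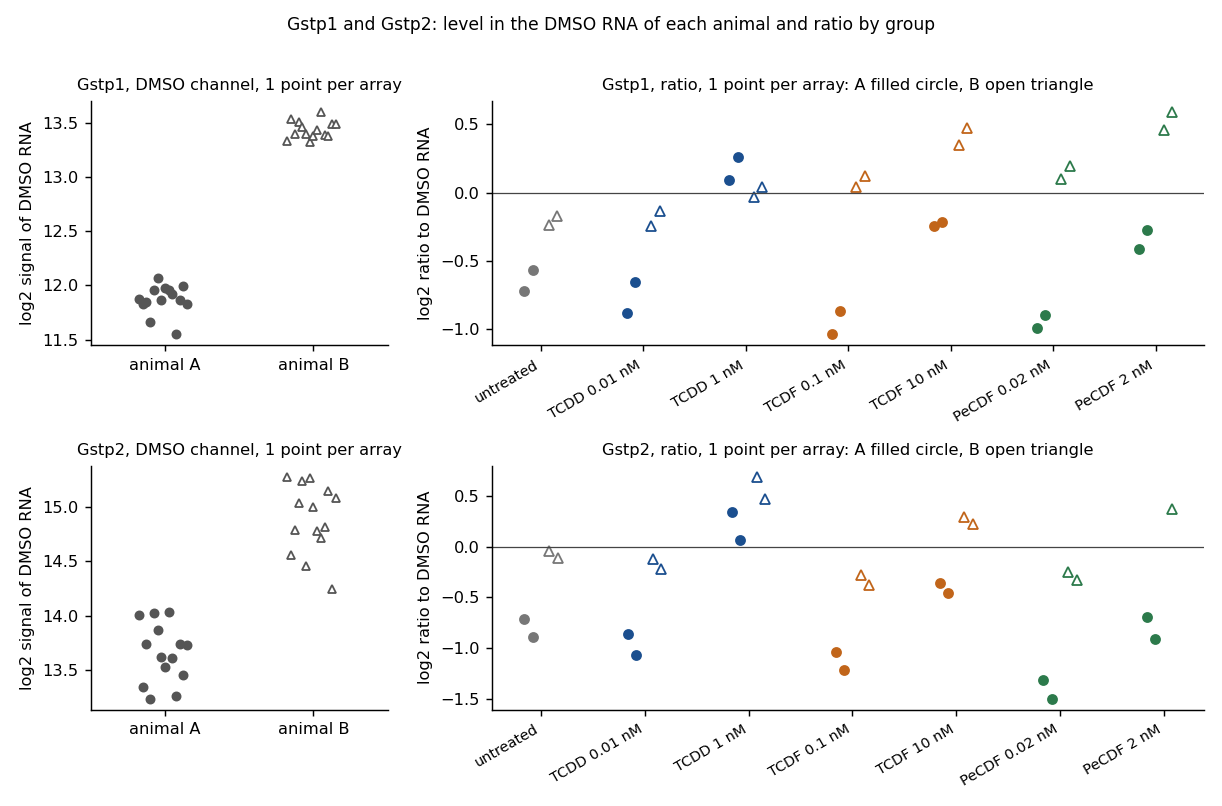
Left, log2 signal of Gstp1 (upper) and Gstp2 (lower) in the DMSO channel of the 14 arrays of each animal; right, their log2 ratio to DMSO RNA by group, 1 point per array, with animal A as filled circles and animal B as open triangles. The DMSO signals of the animals do not overlap, and in animal A the untreated and lower-dose ratios lie below 0.

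Around these enzymes, other genes of conjugation were described from lists. Over all genes tested, 4.63% were called higher and 5.92% lower with TCDD 1 nM. The shares were 1.11% and 1.26% with TCDF 10 nM, and 1.72% and 2.67% with PeCDF 2 nM. Of 14 measured genes that supply the co-substrates, 4 rose and 4 fell with TCDD 1 nM. Ugdh, which makes UDP-glucuronic acid, rose by 0.46 ± 0.09, Gclm, of glutathione synthesis, by 0.55 ± 0.06 and Slc7a11, the cystine carrier, by 0.45 ± 0.04. Cbs and Cth, which make cysteine from homocysteine, fell (-0.65 ± 0.05 and -0.60 ± 0.10), as did Slc26a1, a sulfate carrier (-0.55 ± 0.07). With TCDF 10 nM 1 rose and 1 fell, with PeCDF 2 nM 3 rose and 2 fell, and Ugdh and Cbs were called with all 3 compounds.

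Of 15 other conjugating or hydrolysing enzymes 6 fell and 0 rose with TCDD 1 nM. Glyat, which joins glycine to benzoate and like acids, had -1.38 ± 0.11, and Baat, which joins taurine or glycine to bile acids, -0.53 ± 0.09. Glyat also fell with TCDF 10 nM (-0.82 ± 0.11) and PeCDF 2 nM (-0.81 ± 0.11), the one gene of that list called with either furan. Of 15 carriers of conjugates and bile acids 9 fell and 3 rose with TCDD 1 nM. The ratios of that list ran from -0.80 to 0.51, and not all of those called are named here. Abcb11, the bile salt export pump, had -0.80 ± 0.09 and the uptake carrier Slco1a1 -0.80 ± 0.09, while the efflux pump Abcc4 rose by 0.38 ± 0.06. With each furan 1 carrier fell and 0 rose: Slc22a7, an uptake carrier of organic anions (-0.38 ± 0.07 and -0.35 ± 0.07).

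Of 16 receptors and factors known to control these families 1 rose and 3 fell with TCDD 1 nM. Nfe2l2, which encodes NRF2, rose by 1.25 ± 0.09; Nr1h4, the bile acid receptor FXR, had -1.07 ± 0.12, Foxa1, a liver transcription factor, -0.91 ± 0.05 and Nr1i2, the xenobiotic receptor PXR, -0.66 ± 0.05. Nfe2l2 rose and Foxa1 and Nr1i2 fell with TCDF 10 nM (0.53, -0.52 and -0.35) and PeCDF 2 nM (0.62, -0.46 and -0.28) as well. That made 1 higher and 2 lower with TCDF 10 nM and 2 higher and 2 lower with PeCDF 2 nM, where Foxa2, another liver transcription factor, also rose (0.18 ± 0.04). These transcripts moved beside those of the transferases, and any part they have in them was not tested.

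The hepatocyte label was checked against marker lists. All 14 measured hepatocyte markers were well above background in the DMSO channel of all 28 arrays, with 8 saturated on some. The 14 measured markers of Kupffer cells and leukocytes and all 12 of stellate cells and fibroblasts were also above background throughout, as were 6 of 8 endothelial and 9 of 10 bile duct markers. With TCDD 1 nM 4.63% of all genes tested were called higher and 5.92% lower. In this comparison 2 hepatocyte markers fell and 1 rose, and 5 Kupffer and leukocyte markers fell and 1 rose. Among the rest 3 stellate and 2 bile duct markers fell, and 0 endothelial markers were called. The medians of these lists were -0.11, -0.15, 0.00, -0.04 and -0.04 in the order hepatocyte, Kupffer, stellate, bile duct, endothelial. The summed log2 signal of the Kupffer and leukocyte markers was 13.53 to 14 in TCDD 1 nM RNA and 13.65 to 14.11 in the paired DMSO RNA; for the hepatocyte markers it was 18.59 to 19.15 and 18.66 to 19.33, and for the endothelial markers 10.34 to 10.99 and 10.27 to 10.99. Such a sum is weighted to the brightest markers. By gene, the log2 ratios with TCDD 1 nM ran from -1.35 to 0.10 for the bile duct list and from -0.91 to 0.13 for the stellate list. The bile duct markers summed to 11.25 to 11.34 with TCDD 1 nM against 11.5 to 11.76 in DMSO RNA, which do not overlap, and the stellate and fibroblast markers to 11.8 to 12.03 against 12.01 to 12.27. Their part in the transferase values was not tested, and in such cultures fewer cells of a type and less RNA per cell cannot be told apart.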

How the data were processed

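Each of the 28 Agilent 2-colour arrays was deposited as scanner output with spot intensity values, made with Agilent Feature Extraction (A.7.5.1 per the file headers, 9.1 per the submitters' processing notes); the genome build behind the probe annotation is not given in the sources used here. The deposited series table holds Agilent's log10 ratio of the same arrays and differs from the deposited scanner log10 ratios by at most 4.995e-06.

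Intensities were background-corrected with normexp (offset 50) and normalized by loess within each array, with the 2256 control spots at weight 0. The 1067 spots marked as outliers (0.0921%) were dropped. Ratios were turned to test over DMSO by the labelled dyes, and dye-swap pairs were averaged to 14 animal-level values, with 0.175% missing. Before averaging, the correlation of these turned ratios between arrays, over all kept probes, ran from -0.403 to 0.826; the direction was kept as the labels give it. Probes were kept that all 4 arrays of some group read well above background in the test channel, or at least 14 of 28 arrays in the DMSO channel (37824 of 41012). A model of 7 group means was fitted with limma 3.58.1 in R 4.3.3 to 34849 gene names, with 7 residual degrees of freedom and Benjamini-Hochberg adjustment. The number of animals limits the precision. The fit was tested on simulated data.

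The animal pairs the groups by design; over 21 pairs of groups the correlation of same-animal deviations ran from -0.393 to 0.563, with a median of 0.125, and exceeded 0.1 in 11. Per the file headers the arrays were read on 4 days in 2 sessions; each day of a session holds a single dye orientation. Named were all members called in any comparison. Of those never called, the 2 per family with the largest absolute ratio at an upper dose were named. Further members were named for a range, their probes, saturation, dim signal, the block, an outlying array or the animals. Genes of other lists were named only where called with an upper dose, and not all of those called were named. Members and lists were chosen with earlier results of these data known. The alternatives tried were the background correction, the normalization, the source of the ratio, the filter, the marked spots, the probe, the animal block, the reading session, a fit of 28 arrays and leaving out each animal.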

Additional observations from a re-analysis of the deposited data

Results flagged for a closer look

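In 4 of 174 sets of 4 arrays 1 array lay far from the others by Dixon's criterion at the 95% level. Chance alone does this in about 1 of 20 sets of independent values. The arrays of an animal are correlated, so that rate need not hold here. For Gstt1 with TCDF 10 nM, animal B with the test RNA in Alexa647 read 0.1738, against -0.0611 to -0.0453 on the other arrays. For Sult1b1 with TCDD 0.01 nM, animal B in Alexa555 read 0.5036, against -0.1641 to -0.0527. For Sult4a1 with TCDD 0.01 nM, animal A in Alexa647 read 0.3046, against -0.0149 to -0.0041. For Ugt1a8 with TCDF 10 nM, animal A in Alexa647 read 0.3208, against 0.12 to 0.1498. None of these members was called in the group concerned. Sult1b1 was called in the dose step of TCDD, which includes its flagged array at TCDD 0.01 nM.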

How the results depend on the processing

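With TCDD 1 nM the count of 11 called members was 3 with median centring (214 of all genes called, against 3677) and 8 to 14 under every other alternative run, with 14 in the fit of 28 arrays (6437 of all genes); Ugt1a1, Ugt2a1 and Sult1b1 passed the threshold under all of them. With TCDF 10 nM the 3 became 0 with median centring and in the furan session alone, 8 in the fit of 28 arrays (2804 of all genes, against 823), and 0 to 1 without 1 animal. With PeCDF 2 nM the 3 became 0 without background correction, with median centring, with Agilent's log ratio, with the deposited series values and without either animal, and 9 in the fit of 28 arrays (4495 of all genes, against 1530). For TCDD 1 nM minus TCDF 10 nM the 0 became 9 in the fit of 28 arrays (2526 of all genes, against 22) and 0 to 2 without 1 animal. For TCDD 1 nM minus PeCDF 2 nM the 1 became 0 without background correction, with median centring, with Agilent's log ratio and with the deposited series values, 11 in the fit of 28 arrays (3879 of all genes, against 295) and 0 to 6 without 1 animal. For TCDD 1 nM minus TCDD 0.01 nM the 8 became 5 without background correction, 0 with median centring and 2 to 7 without 1 animal. In the fit of 28 arrays, which treats the arrays of an animal as correlated at 0.39, the dose steps of TCDF and PeCDF gave 1 and 3. With median centring the TCDF 10 nM ratios of Gstm3 and Sult1b1 turned to 0.0692 and 0.0383. Counts with 1 animal left out stand without the share over all genes. They do not tell a change of the members from one in the power of the fit. The causes were not tested.

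With the animal as a replicate block 13 members were called with TCDD 1 nM, 2 with TCDF 10 nM and 3 with PeCDF 2 nM. In the TCDD dose step 9 were called. In the same order 11.4%, 2.74%, 5.39% and 4.23% of all genes were called. Beside the changes given in the report the block changed no other call. Signal over background limits Sult1d1, Sult4a1 and Ugt8, and saturation limits Gsta5, Gstm1, Sult1b1 and, on 1 array, Gstp2. With 2 animals a group, a member that missed the threshold is not shown to be unaffected.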
